A study of Homo sapiens with 16 samples.

Results

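A set of 10 genes of cytokine signalling was followed across 16 RNA sequencing libraries of NOMO-1 cells, a human cell line derived from acute monocytic leukaemia. They are the kinases JAK1 and JAK2, the transcription factors STAT3, STAT5A and STAT5B, the feedback inhibitors SOCS1, SOCS2 and SOCS3, and the survival kinases PIM1 and PIM2. The 10 genes were taken by name from the 26830 entries of the expression table, and all 10 passed the filter that left 14951 entries for testing. Cells were grown for 72 h with CS1 at 100 nM (n = 3), with CS2 at 500 nM (n = 3) or with the solvent DMSO (n = 4). Cells in the remaining groups were infected with lentivirus for a hairpin that targets FTO (shFTO, n = 3) or for the control hairpin shNS (n = 3) and selected for 1 week in puromycin at 1 µg/ml. FTO is an enzyme that takes the m6A mark off RNA. The series presents CS1 and CS2 as FTO inhibitors. The labels give only these short names, and from general knowledge of the study CS1 is bisantrene and CS2 is brequinar, which is also known to block the pyrimidine synthesis enzyme DHODH. The doses of the compounds differ. The hairpin groups had gone through infection and drug selection while the DMSO group had not, and the labels do not say how many hairpin sequences were used. The design text calls the replicates biological without saying more, so p-values measure the spread between these libraries.

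A cytokine receptor without kinase activity of its own binds JAK kinases at its inner tail. When a cytokine draws receptors together, the JAKs phosphorylate the tail and then the STAT proteins, which pair up, enter the nucleus and switch on genes. Among those genes are the SOCS genes, whose proteins bind JAKs or receptors and end the signal, and the PIM genes, whose kinases favour growth and survival of blood cells. In myeloid leukaemias STAT3 and STAT5 are often active downstream of mutated receptors or kinases. The values here are messenger RNA levels and say nothing of phosphorylation.

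Expression is given in TPM, a length-corrected share of all transcripts, scaled to the same total in all libraries. Levels of different genes can therefore be compared. Depth is unknown because the values hold no read counts. Fold changes are differences of log2(TPM + 1), a scale on which changes of weakly expressed genes come out too small. They come from limma, with Benjamini-Hochberg adjusted p-values taken over every gene tested, and a change was called at an adjusted p below 0.05. Values after ± are SD. The hairpin lowered FTO to 8.12, 7.49 and 8.35 TPM in shFTO libraries, against 31.27, 30.82 and 32.79 TPM in shNS libraries (log2 fold change -1.86, adjusted p = 7.38e-12). FTO averaged 34.1 ± 2.43 TPM with CS1, 34.2 ± 1.02 TPM with CS2 and 31.6 ± 1.82 TPM with DMSO. Of 10 markers of monocytic and myeloid leukaemia cells, 7 or 8 had a mean of at least 1 TPM in each group. MPO, of immature granules, and CD14, a receptor of mature monocytes, had means below 1 TPM in all groups. Lymphocyte markers summed to between 7.74 and 18.92 TPM per library, and CD3E, of T cells, was at 0 in every group.

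The typical gene moved too: over all tested genes the median of the log2 fold changes was 0.09 for CS1 against DMSO, 0.20 for CS2 against DMSO, 0.07 for shFTO against shNS and -0.11 for CS1 against CS2. Values are given as fitted, without subtracting this shift. After CS1, 5605 genes were called higher and 2142 lower, while with each library set to a common median 3201 were higher and 5246 lower. The calls of the 10 genes in CS1 against DMSO, CS2 against DMSO and shFTO against shNS were the same under all 3 other scalings tried.

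CS1 against DMSO asks what the first compound does to this pathway. All 10 genes were called, against 51.8% of all tested genes. JAK1, JAK2, STAT3, SOCS1, SOCS3 and PIM1 rose (6 of 10, where 37.5% of all genes were called higher). STAT5A, STAT5B, SOCS2 and PIM2 fell (4 of 10, where 14.3% of all genes were called lower). The median log2 fold change over the 10 genes was 0.43. CS2 against DMSO asks the same of the second compound, and again all 10 were called, against 74.1% of all genes. Here 7 genes rose and 3 fell, where 49.5% and 24.6% of all genes were called higher and lower, and the median was 0.81. PIM2 was the gene that differed in direction between the compounds. The compounds were set against the same DMSO libraries, so agreement between them is not independent.

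shFTO against shNS asks what lowering FTO itself does. JAK1, JAK2, STAT3 and PIM1 rose and STAT5A, STAT5B and SOCS2 fell, so 7 of 10 were called, against 56.4% of all genes. The background was 31.9% higher and 24.5% lower. SOCS1, SOCS3 and PIM2 did not pass. The median over the 10 genes was 0.12. Most genes were called in each of the 3 comparisons, and the counts over 10 genes chosen by name are given as a description. They include SOCS3, which was below 1 TPM in every DMSO library.

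**Figure D1:**
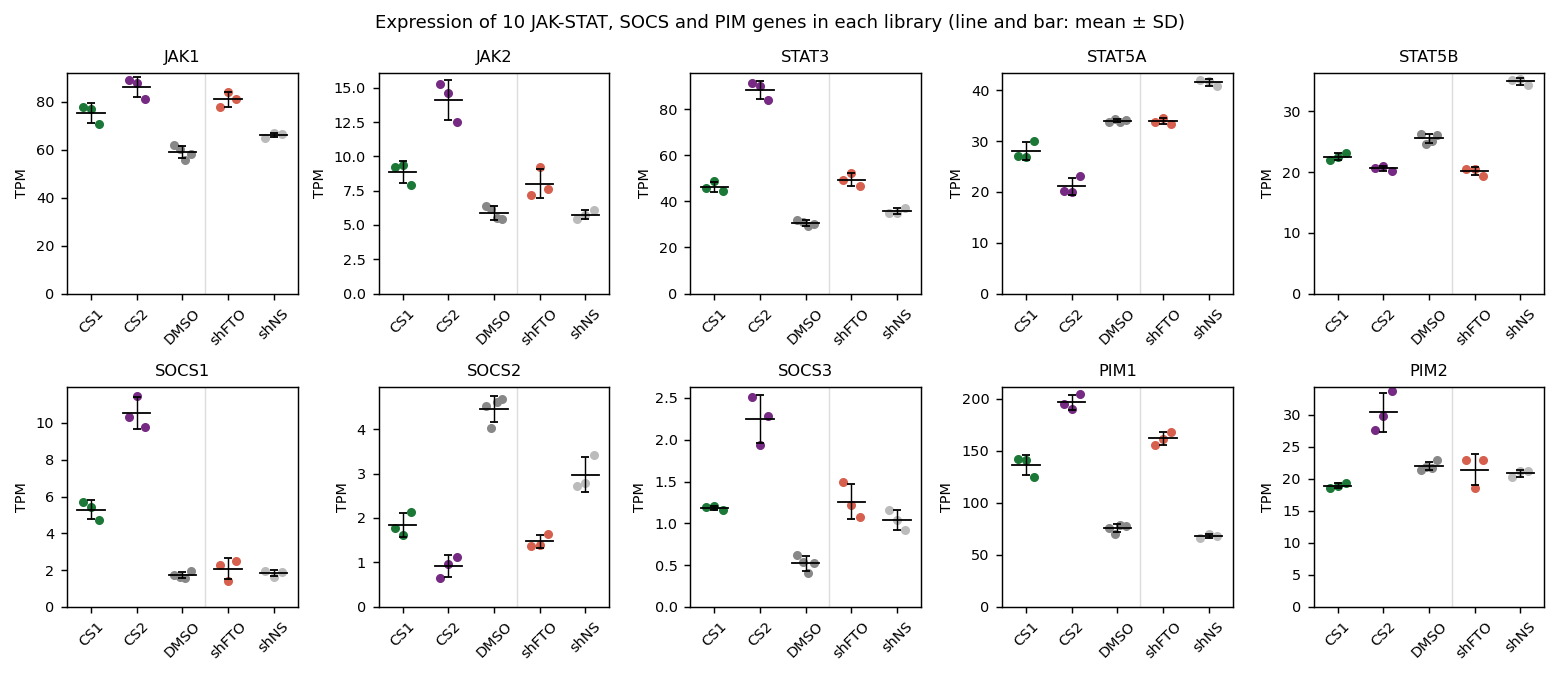
TPM of each of the 10 genes (vertical axes, from 0) in the 16 libraries, grouped as CS1, CS2 and DMSO and, right of the grey line, shFTO and shNS; dots are libraries, lines and bars the group mean ± SD. PIM1 lies between 125 and 205 TPM with CS1, CS2 or shFTO and at or below 78.1 TPM with DMSO or shNS, whereas SOCS1 is at or above 4.72 TPM with the compounds and at or below 2.52 TPM in the other groups.

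JAK1 pairs with many receptors, among them those of interferons and of the IL-6 family. It was the more abundant of the kinases, at 78.04, 77.16 and 70.65 TPM with CS1, 89.15, 87.72 and 81.38 TPM with CS2, against 61.80, 60.52, 55.88 and 58.23 TPM with DMSO. Every treated library lay above every DMSO library. The log2 fold change was 0.34 for CS1 (SE 0.046, adjusted p = 1.8e-05) and 0.53 for CS2 (SE 0.046, adjusted p = 4.69e-08). JAK1 stood at 77.97, 84.11 and 81.20 TPM in shFTO libraries and at 65.04, 67.04 and 66.44 TPM in shNS libraries (0.29, adjusted p = 0.000147). Relative to the median of all genes the 3 changes were 0.25, 0.34 and 0.22.

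JAK2 transmits signals of erythropoietin, thrombopoietin and GM-CSF. It had 9.24, 9.38 and 7.94 TPM with CS1, 15.24, 14.60 and 12.48 TPM with CS2, against 6.40, 6.18, 5.49 and 5.42 TPM with DMSO. CS2 libraries were highest, CS1 libraries intermediate, and none overlapped with DMSO. The log2 fold changes were 0.52 (SE 0.091, adjusted p = 0.000213) for CS1 and 1.13 (SE 0.091, adjusted p = 1.97e-08) for CS2. In shFTO libraries JAK2 had 7.22, 9.22 and 7.59 TPM, and in shNS libraries 5.44, 5.70 and 6.10 TPM (0.41, adjusted p = 0.00206). JAK1 therefore exceeded JAK2 in every library. The ratio of their TPM was lowest with CS2, at 6.13 ± 0.351, against 10.1 ± 0.487 with DMSO.

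STAT3 serves IL-6, IL-10 and G-CSF receptors. STAT3 had 45.80, 48.77 and 44.51 TPM with CS1, 91.23, 90.05 and 83.75 TPM with CS2, against 32.05, 31.14, 29.24 and 30.14 TPM with DMSO. The 3 groups were fully separated. Its log2 fold change was 0.58 (SE 0.048, adjusted p = 1.4e-07) for CS1 and 1.497 (SE 0.048, adjusted p = 1e-12) for CS2, which is 2.88 times the mean TPM with DMSO. In the hairpin groups STAT3 had 49.43, 52.16 and 46.60 TPM in shFTO libraries, against 34.89, 35.07 and 37.06 TPM in shNS libraries (0.46, adjusted p = 2.95e-06).

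STAT5A and STAT5B act below GM-CSF, IL-3 and many other receptors, and they moved the other way. STAT5A had 27.13, 26.86 and 30.11 TPM with CS1, 20.26, 20.06 and 23.10 TPM with CS2, against 33.70, 34.38, 33.81 and 34.19 TPM with DMSO. Again the groups did not overlap, with log2 fold changes of -0.27 (adjusted p = 0.000268) and -0.66 (adjusted p = 7.51e-09). STAT5A had 33.85, 34.57 and 33.41 TPM in shFTO libraries, against 42.00, 41.90 and 40.81 TPM in shNS libraries (-0.28, adjusted p = 0.000275). The shFTO range overlapped with that of DMSO, and the shNS libraries lay above both.

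STAT5B had 21.99, 22.51 and 23.09 TPM with CS1, 20.76, 20.99 and 20.20 TPM with CS2, against 26.32, 24.70, 25.12 and 26.13 TPM with DMSO. The falls were small but without overlap, at -0.17 (SE 0.037, adjusted p = 0.000969) and -0.29 (SE 0.037, adjusted p = 2.9e-06). With the hairpin the fall was deeper, but from a higher control level, as the shNS libraries lay above all DMSO libraries. The shFTO range overlapped with that of CS2. STAT5B had 20.50, 20.55 and 19.44 TPM in shFTO libraries and 35.24, 35.28 and 34.31 TPM in shNS libraries (-0.76, SE 0.039, adjusted p = 8.96e-10).

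STAT5B, STAT5A and STAT3 lie side by side on chromosome 17 (GRCh38, GENCODE release 29). STAT5B spans 42199168 to 42276707 on the minus strand, STAT5A 42287547 to 42311943 on the plus strand, and STAT3 42313324 to 42388568 on the minus strand. The gap between STAT5B and STAT5A is 10839 bases and that between STAT5A and STAT3 is 1380 bases. STAT5A and STAT5B are close copies, so the division of reads between them by the authors' counting is uncertain. Their summed TPM, an alternative added after the data were seen, fell by 0.23 after CS1 (adjusted p = 4.07e-05), by 0.50 after CS2 (adjusted p = 3.05e-09) and by 0.49 with the FTO hairpin (adjusted p = 4.29e-08). The sum averaged 50.6 ± 2.29 TPM with CS1, 41.8 ± 1.31 TPM with CS2 and 59.6 ± 0.686 TPM with DMSO. It was 54.1 ± 1.15 TPM in shFTO and 76.5 ± 1.21 TPM in shNS.

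The balance between STAT3 and STAT5 messenger RNA shifted in all 3 cases. The ratio of STAT3 to summed STAT5 was 0.919 ± 0.0765 with CS1, 2.12 ± 0.159 with CS2 and 0.514 ± 0.0191 with DMSO. With the hairpins it was 0.913 ± 0.0324 in shFTO and 0.466 ± 0.0233 in shNS. STAT5 thus outweighed STAT3 in every CS1, DMSO, shFTO and shNS library, and STAT3 outweighed STAT5 in every CS2 library. Within STAT5, CS2 and the hairpin differed in direction. STAT5A over STAT5B was 1.24 ± 0.0561 with CS1, whose libraries overlapped with DMSO, 1.03 ± 0.103 with CS2 and 1.33 ± 0.0483 with DMSO, but 1.68 ± 0.0337 in shFTO and 1.19 ± 0.0021 in shNS. These ratios are descriptions without a test, and the STAT5A to STAT5B ratio carries the uncertainty of close copies.

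**Figure D2:**
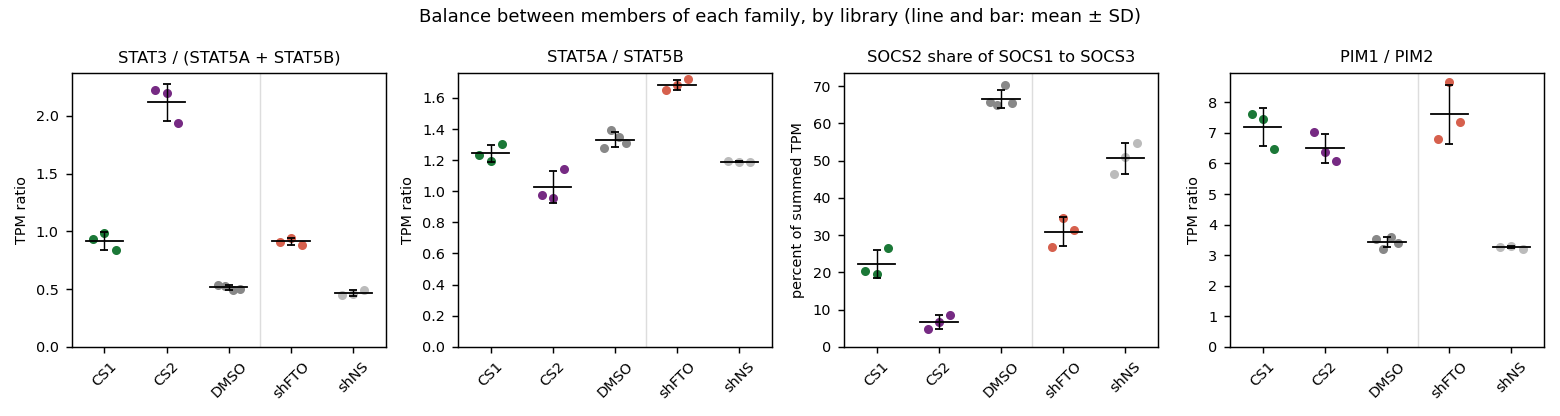
Ratios of TPM, or percent of summed TPM for SOCS2, within each family (vertical axes, from 0) in the 16 libraries; dots are libraries, lines and bars the group mean ± SD. STAT3 over summed STAT5 is at least 1.93 in CS2 libraries and at most 0.988 in all others, and SOCS2 makes up 4.74% to 8.49% of SOCS1 to SOCS3 with CS2, against 64.8% to 70.2% with DMSO.

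SOCS1 binds JAKs directly and is a strong brake on interferon signals. It had 5.72, 5.44 and 4.72 TPM with CS1, 10.35, 11.48 and 9.79 TPM with CS2, against 1.74, 1.65, 1.56 and 1.95 TPM with DMSO. The 3 groups were far apart, with log2 fold changes of 1.21 (SE 0.113, adjusted p = 4.6e-07) for CS1 and 2.08 (SE 0.113, adjusted p = 2.27e-10) for CS2. On the TPM scale the means were 3.07 and 6.11 times that of DMSO. No such rise was measured with the hairpin, where SOCS1 had 2.26, 1.43 and 2.52 TPM in shFTO libraries and 1.97, 1.65 and 1.92 TPM in shNS libraries. The groups overlapped, and the log2 fold change was 0.09, with a 95% interval from -0.16 to 0.35 (adjusted p = 0.534). This value rested on single libraries: it was 0.25 (adjusted p = 0.048) without shFTO replicate 2 and -0.015 (adjusted p = 0.929) without shFTO replicate 3. RMI2, a gene of DNA repair on the opposite strand, overlaps SOCS1 in the annotation, and strand use in counting is not given. RMI2 averaged 45.3 TPM with CS1, 79.8 TPM with CS2 and 45.5 TPM with DMSO, and 31.9 TPM in shFTO against 67.8 TPM in shNS.

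SOCS2, known for restraining growth hormone signals and as a STAT5 target, fell in all 3 comparisons. It had 1.77, 1.62 and 2.13 TPM with CS1, 0.64, 0.97 and 1.12 TPM with CS2, against 4.51, 4.03, 4.61 and 4.68 TPM with DMSO. Each group lay apart from the others, with log2 fold changes of -0.94 (SE 0.102, adjusted p = 2.11e-06) and -1.52 (SE 0.102, adjusted p = 2.65e-09). Its mean TPM was 0.413 and 0.204 of that with DMSO. SOCS2 had 1.38, 1.40 and 1.64 TPM in shFTO libraries, against 2.71, 2.78 and 3.42 TPM in shNS libraries (-0.68, adjusted p = 8.51e-05). The antisense gene SOCS2-AS1 averaged below 0.6 TPM in every group.

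SOCS3, a brake on IL-6 and G-CSF receptors, had the lowest mean of the 10 genes in every group but CS2, where SOCS2 was lower. It had 1.19, 1.21 and 1.16 TPM with CS1, 2.51, 1.94 and 2.28 TPM with CS2, against 0.62, 0.54, 0.40 and 0.53 TPM with DMSO. It passed the filter of 1 TPM through the other groups, since all DMSO libraries were below it. The groups did not overlap. Because of that filter, its log2 fold changes against DMSO, 0.52 for CS1 and 1.09 for CS2, are given as a description. The same holds for SOCS3 in the other comparisons that use DMSO. With a pseudocount of 0.1 TPM in place of 1 the values were 1.06 and 1.92. In the hairpin groups SOCS3 had 1.49, 1.22 and 1.07 TPM in shFTO libraries and 1.16, 1.04 and 0.92 TPM in shNS libraries. These overlapped, and the change of 0.15 did not pass (95% interval -0.07 to 0.36, adjusted p = 0.232).

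The 3 inhibitors summed to 8.32 ± 0.338 TPM with CS1, 13.7 ± 0.623 TPM with CS2 and 6.71 ± 0.403 TPM with DMSO, and to 4.80 ± 0.654 TPM in shFTO and 5.86 ± 0.395 TPM in shNS. Their composition shifted as well. SOCS2 made up 22.2% ± 3.83 of it with CS1, 6.66% ± 1.88 with CS2 and 66.5% ± 2.48 with DMSO. In shFTO libraries SOCS2 was 30.9% ± 3.85 of the sum, against 50.6% ± 4.12 in shNS libraries.

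PIM1 is a kinase whose level is set mostly by how much is made, and its gene is a STAT target. PIM1 had 142.22, 141.03 and 125.06 TPM with CS1, 194.48, 190.40 and 204.59 TPM with CS2, against 75.92, 70.13, 78.12 and 77.57 TPM with DMSO. It was the most abundant of the 10 genes in every library, and the 3 groups were fully separated. The log2 fold changes were 0.84 (SE 0.050, adjusted p = 4.01e-09) and 1.37 (SE 0.050, adjusted p = 3.23e-12). PIM1 also gave the largest change of the 10 genes with the hairpin. It had 155.54, 161.51 and 168.26 TPM in shFTO libraries and 66.48, 69.87 and 68.29 TPM in shNS libraries (1.23, SE 0.053, adjusted p = 1.53e-10), or 2.37 times the shNS mean.

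PIM2 followed another course. It had 18.63, 18.93 and 19.29 TPM with CS1, 27.69, 29.82 and 33.68 TPM with CS2, against 21.42, 21.90, 21.76 and 22.92 TPM with DMSO. CS1 libraries were all below and CS2 libraries all above DMSO, with log2 fold changes of -0.20 (SE 0.070, adjusted p = 0.0233) and 0.44 (SE 0.070, adjusted p = 3.45e-05). The fall with CS1 was not called without CS1 replicate 1 (adjusted p = 0.0722), CS1 replicate 2 (adjusted p = 0.0574) or DMSO replicate 4 (adjusted p = 0.0594). PIM2 had 22.88, 18.61 and 22.91 TPM in shFTO libraries and 20.26, 21.16 and 21.25 TPM in shNS libraries. Here shFTO replicate 2 lay below all shNS libraries and the others above them, and the change of 0.03 did not pass (95% interval -0.13 to 0.19, adjusted p = 0.737). The ratio of PIM1 to PIM2 was 7.19 ± 0.618 with CS1, 6.49 ± 0.484 with CS2 and 3.43 ± 0.176 with DMSO. It was 7.61 ± 0.967 in shFTO and 3.27 ± 0.0462 in shNS.

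**Figure D3:**
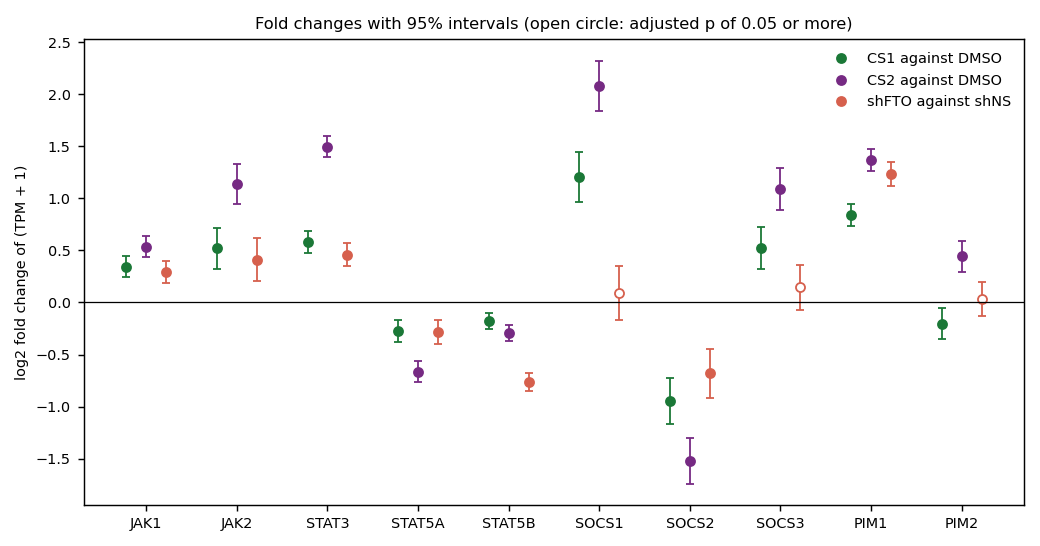
Log2 fold change of TPM + 1 (vertical axis) with its 95% interval for the 10 genes in CS1 against DMSO, CS2 against DMSO and shFTO against shNS; filled circles had an adjusted p below 0.05. SOCS1, SOCS3 and PIM2 are called with both compounds and lie near 0 with the hairpin. The fold change of STAT5B is lowest with the hairpin, at -0.76, where its control level in shNS is above that in DMSO.

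Since several of these genes are described as STAT targets, the 250 bases before each RefSeq start (GRCh38.p14) were searched for the STAT motif TTCNNNGAA, which reads the same on either strand. A total of 9 of the 10 genes had at least 1 window. The motif was in 0 of their 17 windows, and in 6.57% of all 35116 windows. The variant with 1 further base in its spacer was in 1 of the 17, before STAT5A, and in 5.38% of all windows. Absence from these windows says nothing of sites elsewhere. The SOCS3 windows, chr17:78360926-78361175 and chr17:78359668-78359917 on the minus strand, leave out the bases just before its GENCODE start at 78360077. That stretch of the SOCS3 promoter was not searched. Some windows of STAT5A overlap, as do some of JAK2. The STAT5B window and some windows of JAK2, STAT5A and SOCS3 lie inside the GENCODE gene. The 17 are therefore not all separate promoters, nor all upstream of the gene. CISH, a SOCS relative outside the 10 genes, is the contrast, with 4 matches, whose first bases lie 241, 230, 129 and 112 bases before the start. At least 4 matches occurred in 5 of all windows. The windows before SOCS1 and PIM1, which rose most after CS2 within their families, and before CISH are shown to set side by side promoters without and with the motif. They are read 5′ to 3′ on the gene's strand, in capitals where TTCNNNGAA matched. SOCS1 is chr16:11256205-11256454 on the minus strand, PIM1 chr6:37169902-37170151 on the plus strand and CISH chr3:50611775-50612024 on the minus strand.
SOCS1: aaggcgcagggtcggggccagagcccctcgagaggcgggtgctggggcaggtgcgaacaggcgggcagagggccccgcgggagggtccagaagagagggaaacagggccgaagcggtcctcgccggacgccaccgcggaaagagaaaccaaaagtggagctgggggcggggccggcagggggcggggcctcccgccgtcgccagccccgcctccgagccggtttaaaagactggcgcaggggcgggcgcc
PIM1: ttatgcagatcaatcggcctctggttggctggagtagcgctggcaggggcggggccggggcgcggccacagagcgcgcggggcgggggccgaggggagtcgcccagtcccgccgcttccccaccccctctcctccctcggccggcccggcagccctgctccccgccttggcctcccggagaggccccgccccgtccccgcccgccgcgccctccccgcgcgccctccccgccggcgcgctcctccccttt
CISH: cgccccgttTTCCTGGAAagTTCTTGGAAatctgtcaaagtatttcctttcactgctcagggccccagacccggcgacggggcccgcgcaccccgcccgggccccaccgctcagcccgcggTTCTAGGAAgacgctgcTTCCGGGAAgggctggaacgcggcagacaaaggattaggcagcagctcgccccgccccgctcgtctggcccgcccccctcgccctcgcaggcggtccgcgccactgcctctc

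CISH encodes an inhibitor that binds cytokine receptors. It averaged 15.8 ± 0.774 TPM with CS1, 21.3 ± 2.74 TPM with CS2 and 14.2 ± 0.58 TPM with DMSO. Its rise passed with CS2 (log2 fold change 0.55, adjusted p = 4.94e-06) but not with CS1 (0.14, adjusted p = 0.116). With the hairpin CISH averaged 14.0 ± 0.894 TPM in shFTO and 16.04 ± 0.843 TPM in shNS (-0.18, adjusted p = 0.0549).

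The compounds were also set directly against each other, at their unequal doses. All 10 genes were called, against 66.6% of all genes. In this comparison STAT5A, STAT5B and SOCS2 were higher with CS1 than with CS2 (3 of 10, against 26.2% of all genes), and the other 7 were lower (40.4% of all genes). The differences were wide for STAT3 at -0.92 (SE 0.052, adjusted p = 1.1e-09), SOCS1 at -0.88 (adjusted p = 1.34e-05) and PIM2 at -0.65 (adjusted p = 2.14e-06). Their order depended on the pseudocount: with 0.1 TPM the values were -0.93 for STAT3, -0.98 for SOCS1 and 0.96 for SOCS2, which was 0.58 with 1 TPM. Differences were small for JAK1 at -0.19 (adjusted p = 0.0032) and STAT5B at 0.12 (adjusted p = 0.0142). JAK1 was not called under quantile normalization (adjusted p = 0.0883). STAT5B was not called without CS1 replicate 3 (adjusted p = 0.0511) or with the other groups left out of the fit (adjusted p = 0.0597). For 9 of the 10 genes the CS1 mean lay between those of DMSO and CS2, PIM2 being the exception. The share of all tested genes with this order was not counted, so it cannot be called particular to these genes.

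Whether a compound acted differently from the hairpin was tested as the response to the compound minus the response to the hairpin. For CS1, 4 of 10 genes were called, against 49.4% of all genes. STAT5B (0.59, adjusted p = 5.46e-07), SOCS1 (1.11, adjusted p = 5.73e-05) and SOCS3 (0.38, adjusted p = 0.0319) had the higher response with CS1, and PIM1 the lower (-0.39, adjusted p = 0.000426). For STAT5A and STAT5B summed the difference was 0.26 (adjusted p = 0.000569). Of all genes 31% were called higher and 18.3% lower. With the other scalings 2 or 3 genes were called higher and 2 lower. SOCS3 was not called without DMSO replicate 3, CS1 replicate 1 or 2, shNS replicate 1 or 2, or shFTO replicate 2 or 3 (0.32 to 0.38, adjusted p up to 0.0786). For JAK1, JAK2, STAT3 and STAT5A the responses differed by 0.05, 0.11, 0.12 and 0.01, and the widest of their 95% intervals was that of JAK2, from -0.18 to 0.39. SOCS2 (-0.26, 95% interval -0.58 to 0.05, adjusted p = 0.157) and PIM2 (-0.24, 95% interval -0.46 to -0.02, adjusted p = 0.0688) did not pass either, although SOCS2 passed with a pseudocount of 5 TPM (-0.17, adjusted p = 0.039) and PIM2 passed under each of the 3 other scalings (-0.33 to -0.31) and without shFTO replicate 2 (-0.33, adjusted p = 0.00512).

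For CS2, 9 of 10 genes were called, against 63.4% of all genes, 7 with the higher and 2 with the lower response (39.8% and 23.7% of all genes). SOCS1 (1.99, adjusted p = 5.91e-08), STAT3 (1.04, adjusted p = 7.38e-09) and SOCS3 (0.94, adjusted p = 2.14e-05) had the higher response with CS2. With a pseudocount of 0.1 TPM these were 2.42, 1.06 and 1.67. SOCS2 (-0.84, adjusted p = 0.000153) and STAT5A (-0.38, adjusted p = 0.000259) fell more with CS2 than with the hairpin. JAK1 (0.25, adjusted p = 0.00493) and PIM2 (0.41, adjusted p = 0.00243) were not called under any of the 3 other scalings. PIM1 was not called (0.14, 95% interval -0.02 to 0.29, adjusted p = 0.116).

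The control hairpin cells were themselves not like DMSO cells. In shNS against DMSO 7 of 10 genes were called, against 56.6% of all genes, 5 higher and 2 lower (23% and 33.6% of all genes), or 5 and 1 with the other scalings. STAT5B (0.44, adjusted p = 1.54e-07), SOCS3 (0.42, adjusted p = 0.00125) STAT5A (0.28, adjusted p = 0.000165), STAT3 (0.21, adjusted p = 0.00157) and JAK1 (0.16, adjusted p = 0.00766) were higher in shNS, and SOCS2 was lower (-0.46, adjusted p = 0.00126). The fall of PIM1 (-0.14, adjusted p = 0.0241) was not called without DMSO replicate 3, DMSO replicate 4, shNS replicate 1 or shNS replicate 3 (adjusted p between 0.0573 and 0.0902). Infection, selection and time in culture cannot be told apart here.

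Over all 5 groups CS2 was highest for JAK1, JAK2, STAT3, SOCS1, SOCS3, PIM1 and PIM2. For JAK1 the CS2, shFTO and CS1 ranges overlapped in turn, followed by shNS and then DMSO, which were apart. STAT3 ran from CS2 through shFTO and CS1, which overlapped, to shNS and DMSO. PIM1 ran in the order CS2, shFTO, CS1, DMSO and shNS without overlap. The last 2 groups nearly touched, at 70.13 TPM for the lowest DMSO and 69.87 TPM for the highest shNS library. That difference was not called under the other scalings. STAT5A and STAT5B were highest in shNS and then DMSO. The lowest STAT5A was with CS2, and the lowest STAT5B in shFTO and CS2, which overlapped. SOCS2 was highest with DMSO, then shNS, then CS1 and shFTO, which overlapped, then CS2.

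Genes with the most similar profile were sought for each of the 10 whose group means spanned at least 1 on the log2 scale. Likeness was the root mean square difference of centred log2(TPM + 1) over the 16 libraries, where 0 is identity. For PIM1 they were DUSP10 (0.0881), IL16 (0.109) and TRIM38 (0.140). DUSP10, a phosphatase of stress kinases, averaged 24.2 TPM with CS1, 34.0 TPM with CS2 and 11.5 TPM with DMSO, and 25.6 TPM in shFTO and 11.4 TPM in shNS. For SOCS1 they were CHRM3-AS2 (0.134), RELB (0.140) and FFAR3 (0.159). RELB, an NF-kB subunit, averaged 11.7 TPM with CS1, 20.8 TPM with CS2 and 4.59 TPM with DMSO, and 4.71 TPM in shFTO and 3.91 TPM in shNS. For SOCS2 they were DNAAF5 (0.147), TERT (0.170) and MIPEP (0.183). STAT3 was closest to DGKG (0.0825), CSRNP1 (0.0875) and KLHL2 (0.0916). JAK2 was closest to CBL (0.0757), EIF5A2 (0.0777) and SSBP2 (0.0807), and SOCS3 to ITM2C (0.0983) and ALKBH6 (0.101) among those reported. Because this scale makes changes of weakly expressed genes too small, likeness to SOCS1, SOCS2 and SOCS3 depends on the pseudocount and is not likeness in TPM ratio. SOCS3 averaged 2.24 TPM with CS2 and 0.52 TPM with DMSO, while ITM2C averaged 158.6 and 74.9 TPM.

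The rest of the pathway was described from lists of ligands, receptors, further kinases and STATs, inhibitors and targets. Their counts are to be read against the shares of all tested genes called higher and lower, which were 37.5% and 14.3% with CS1, 49.5% and 24.6% with CS2, and 31.9% and 24.5% with the hairpin. These shares hold for the main scaling only. Under the other scalings 3201 to 3872 of 14951 genes were higher and 3974 to 5246 lower with CS1. With CS2 5199 to 5459 were higher and 5287 to 5667 lower, and with the hairpin 3759 to 4359 and 4162 to 4612. Of 17 cytokine ligands 3 were expressed enough for testing. Oncostatin M (OSM), an IL-6 family cytokine, averaged 2.18 ± 0.229 TPM with CS1, 8.35 ± 1.53 TPM with CS2 and 0.84 ± 0.102 TPM with DMSO. All its DMSO, shFTO and shNS libraries were below 1 TPM, so OSM reached testing only through the compound groups where it was high, and its log2 fold changes of 0.79 and 2.33 are given as a description. IL10, an anti-inflammatory cytokine that signals through STAT3, averaged 18.3 ± 1.28 TPM with CS2 and 3.73 ± 1.05 TPM with DMSO (2.05, adjusted p = 9.54e-09). With CS1 IL10 did not pass (0.22, adjusted p = 0.25). IL11 rose with CS2 (0.52, adjusted p = 0.000665) and with the hairpin (0.34, adjusted p = 0.0249), the last not under every scaling. With a common median 1 ligand fell with CS1, and with quantile normalization 1 fell with the hairpin.

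Among 24 tested cytokine receptors 16 rose and 1 fell after CS1 (median 0.34), 17 rose and 2 fell after CS2 (0.57), and 16 rose and 3 fell with the hairpin (0.36). The medians of all tested genes were 0.09, 0.20 and 0.07. Of the tested receptors 66.7% rose with CS1, 70.8% with CS2 and 66.7% with the hairpin, against 37.5%, 49.5% and 31.9% of all genes. IL2RB and IL7R were below 1 TPM in every DMSO and shNS library. IL7R reached testing only through CS1 and CS2 and IL2RB only through shFTO, the groups where they were high. Both are among the 24, so the counts and shares that include them are given as a description. Under the other scalings 12 to 14 receptors rose and 1 or 2 fell with CS1, 16 rose and 3 or 4 fell with CS2, and 15 or 16 rose and 4 fell with the hairpin. The interferon gamma receptor chains rose with both compounds. IFNGR2 averaged 44.8 ± 1.07 TPM with CS1, 79.7 ± 1.35 TPM with CS2 and 27.8 ± 0.186 TPM with DMSO. IFNGR1 averaged 91.8 ± 2.04 TPM with CS1, 117.6 ± 5.19 TPM with CS2 and 55.2 ± 0.307 TPM with DMSO. CSF2RA, the GM-CSF receptor alpha chain, averaged 83.3 ± 4.87 TPM with CS1 and 43.7 ± 1.64 TPM with DMSO. IL4R rose with CS2 (0.81, adjusted p = 1.13e-10). With the hairpin IL6R fell to 72.6 ± 2.29 TPM in shFTO, against 104.2 ± 2.0 TPM in shNS, while the IL-10 receptor chain IL10RA averaged 20.1 ± 1.59 TPM in shFTO and 11.0 ± 0.523 TPM in shNS. IFNGR1 also rose with the hairpin (0.39, adjusted p = 5.76e-07).

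All 5 tested relatives among JAK and STAT genes rose with each compound, and 3 of 5 with the hairpin, where 37.5%, 49.5% and 31.9% of all genes were called higher with CS1, CS2 and the hairpin. With the other scalings 4 or 5 rose with the compounds, and with the hairpin 2 or 3 rose and 1 or 2 fell. STAT2, a factor of the interferon response, rose in all 3 comparisons, and averaged 85.4 ± 11.7 TPM in shFTO, against 41.0 ± 0.0833 TPM in shNS. TYK2, a further kinase of the family, had log2 fold changes of 0.35 with CS1, 0.84 with CS2 and 0.30 with the hairpin. STAT6, which serves IL-4, rose with CS2 (0.44, adjusted p = 1.39e-07) and with the hairpin (0.18, adjusted p = 0.00283), the last not under every scaling. Of 5 further SOCS and PIM genes 2, 3 and 2 rose with CS1, CS2 and the hairpin, and 0 fell. This split depended on scaling: with the other scalings 0 rose and 0 to 2 fell with CS1, 2 rose and 2 fell with CS2, and 2 rose and 1 fell with the hairpin. PIM3, the remaining PIM kinase, averaged 34.5 ± 2.4 TPM with CS1, 33.8 ± 2.27 TPM with CS2 and 35.5 ± 2.38 TPM with DMSO, and did not pass. SOCS5 (0.57, adjusted p = 1.09e-06) and SOCS6 (0.41, adjusted p = 2.44e-05) rose with the hairpin. SOCS4 rose with CS2 (0.70, adjusted p = 8.87e-06), while the rises of SOCS4 and SOCS5 with CS1 were lost under other scalings.

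Of 12 phosphatases and other brakes 5 rose and 1 fell with CS1, 9 rose and 1 fell with CS2, and 6 rose and 2 fell with the hairpin. The 41.7% that rose with CS1 lies near the 37.5% of all genes, while 75% rose with CS2 and 50% with the hairpin, against 49.5% and 31.9% of all genes. With the other scalings 4 or 5 rose and 3 fell with CS1, 8 rose and 3 fell with CS2, and 3 to 6 rose and 2 to 4 fell with the hairpin. USP18, which dampens interferon receptors, averaged 16.7 ± 1.17 TPM with CS1, 24.8 ± 1.23 TPM with CS2 and 9.36 ± 0.723 TPM with DMSO. USP18 was higher in shFTO, at 8.54 ± 0.406 TPM, than in shNS, at 3.56 ± 0.244 TPM. The shFTO range of USP18 overlapped with that of DMSO, and the shNS libraries lay below both. The phosphatase genes PTPRC (CD45) and PTPN1 rose with CS1, by 1.01 and 0.32, and PTPRC rose with the hairpin by 0.81. PIAS4, which can silence STATs, rose with CS2 (0.86) and fell with the hairpin (-0.54, adjusted p = 5.81e-07). Of 4 subunits that join SOCS proteins to ubiquitin ligases, 0 rose and 1 fell with CS1, 2 rose with CS2, and 1 rose and 2 fell with the hairpin. With the other scalings 0 rose and 1 to 4 fell with CS1, 0 rose and 3 fell with CS2, and 1 rose and 1 or 2 fell with the hairpin. TCEB1, the older name of an elongin subunit, fell with the hairpin (-0.33, adjusted p = 3.22e-05), and the cullin CUL5 rose (0.29, adjusted p = 0.000136).

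Of 17 tested STAT target genes 12 rose and 2 fell with CS1 (median 0.52), and 14 rose and 2 fell with CS2 (0.95). With the hairpin 6 rose and 6 fell (0.06). The shares that rose were 70.6% with CS1 and 82.4% with CS2, against 37.5% and 49.5% of all genes, and 35.3% with the hairpin, near the 31.9% of all genes. Under the other scalings 10 or 11 rose and 2 or 3 fell with CS1, where BCL2L1 and MCL1 were not called under every scaling. The direction of BCL2L1 with CS2 depended on scaling, as did the calls of CCND3 and VEGFA with the hairpin. The genes that fell with both compounds were CCND2, the cyclin D2 gene, and MYC, a transcription factor that drives growth. CCND2 averaged 16.8 ± 1.72 TPM with CS1, 5.27 ± 0.257 TPM with CS2 and 34.5 ± 2.28 TPM with DMSO, and 15.3 ± 0.517 TPM in shFTO against 30.997 ± 0.844 TPM in shNS. MYC had 119 ± 18.3 TPM with CS1, 19.8 ± 2.15 TPM with CS2 and 297 ± 17.6 TPM with DMSO, and 159 ± 44.3 TPM in shFTO against 285 ± 3.4 TPM in shNS. VEGFA, a vessel growth factor, rose with CS1 (0.76, adjusted p = 8.68e-09), and ID1, an inhibitor of differentiation factors, rose with CS2 (1.79, adjusted p = 4.89e-12). HIF1A, the oxygen-sensing factor, rose with CS1 (0.67, adjusted p = 1.93e-08), and the adhesion molecule ICAM1 rose with the hairpin (0.55, adjusted p = 4.44e-08). BCL6, a transcriptional repressor, was higher in shFTO, at 15.0 ± 0.809 TPM, than in shNS, at 8.74 ± 0.169 TPM.

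Among 13 substrates of PIM kinases 7 rose and 3 fell with CS1, 8 rose and 4 fell with CS2, and 5 rose and 2 fell with the hairpin. The shares that rose, 53.8%, 61.5% and 38.5%, stand against 37.5%, 49.5% and 31.9% of all genes. With the other scalings these were 3 or 4 up and 4 to 6 down, 5 or 6 up and 5 down, and 3 to 6 up and 4 down. Fewer of all genes were then called higher too, and more lower, so the shares above hold for the main scaling only. CDKN1A, the cell cycle inhibitor p21, averaged 53.8 ± 9.35 TPM with CS1, 100.8 ± 15.5 TPM with CS2 and 6.56 ± 0.376 TPM with DMSO. The chemokine receptor CXCR4 averaged 758 ± 17.9 TPM with CS1, 919 ± 20.1 TPM with CS2 and 454 ± 17.3 TPM with DMSO. EIF4B, a translation factor, fell to 115 ± 4.94 TPM with CS2, against 294 ± 6.26 TPM with DMSO. CDC25A, a phosphatase that drives the cell cycle, fell with the hairpin (-1.07, adjusted p = 6.07e-08), as did the translation repressor EIF4EBP1 (-0.78, adjusted p = 1.6e-08).

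**Figure D4:**
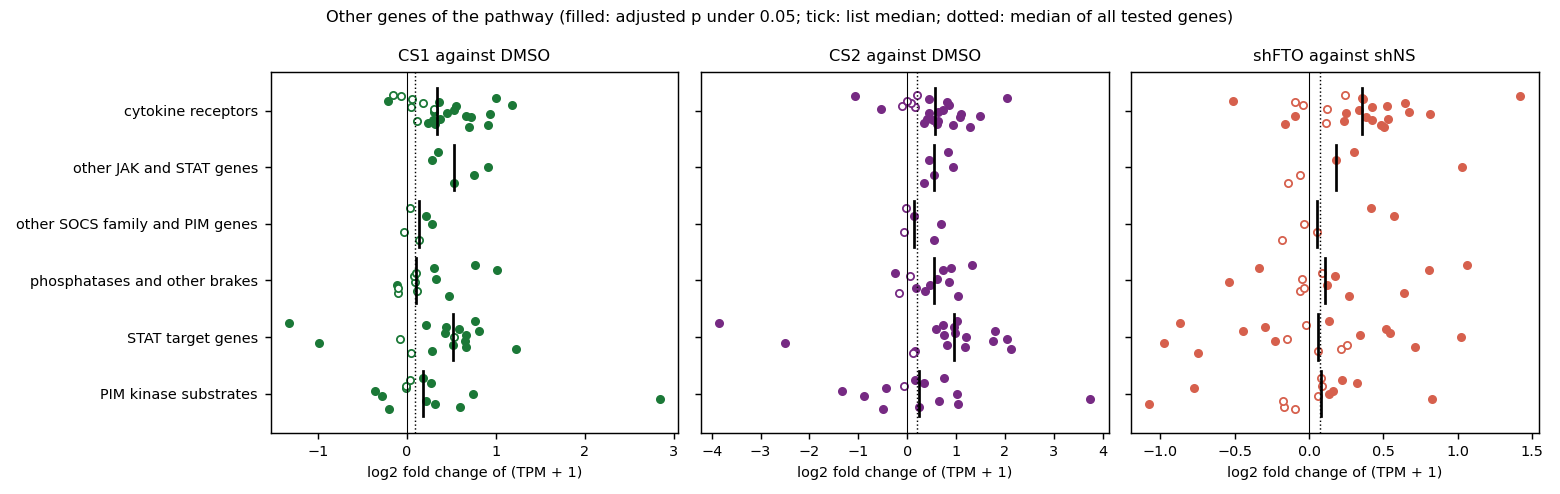
Log2 fold change of TPM + 1 (horizontal axes, differing in range) for tested genes of 6 lists in CS1 against DMSO, CS2 against DMSO and shFTO against shNS; filled dots had an adjusted p below 0.05, thick ticks are list medians and the dotted line is the median of all tested genes. STAT target genes have a median of 0.52 with CS1 and 0.95 with CS2, and of 0.06 with the hairpin.

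Markers of monocytic cells moved in the same comparisons. The summed TPM of the 10 markers ranged from 1044 to 1053 with CS1, from 1201 to 1249 with CS2 and from 681 to 714 with DMSO. It ranged from 3018 to 3610 in shFTO and from 871 to 894 in shNS, where lysozyme (LYZ) averaged 2226 ± 306 TPM in shFTO and 163 ± 3.29 TPM in shNS. LYZ alone was the larger part of the shFTO sum. Of the 8 tested, 7 rose and 1 fell with each compound (87.5% higher, against 37.5% of all genes with CS1 and 49.5% with CS2), and 5 rose and 3 fell with the hairpin (62.5% higher, against 31.9%). The 3 that fell with the hairpin were FCN1, SPI1 and CEBPA. They averaged 31.5 ± 1.31, 117.9 ± 6.15 and 218 ± 4.35 TPM in shFTO, against 40.7 ± 0.817, 129.5 ± 4.59 and 253 ± 3.58 TPM in shNS. Under other scalings 6 or 7 rose and 1 fell with CS1, 6 rose and 2 fell with CS2, where CD33 turned direction, and 4 rose and 3 fell with the hairpin. CSF1R, below 1 TPM in every DMSO library, reached testing through groups where it was high. It is among the 8, so these counts are given as a description. Lymphocyte markers moved at low levels: of 4 tested, 3 rose and 0 fell with CS1, 3 rose and 1 fell with CS2, and 3 rose and 0 fell with the hairpin, CD2 averaging 4.62 ± 0.568 TPM in shFTO and 1.05 ± 0.11 TPM in shNS. No erythroid or megakaryocyte marker reached testing. Epithelial and fibroblast markers summed to at most 10.6 TPM in a library. The part of this shift in the changes of JAK, STAT, SOCS and PIM genes was not tested, and in bulk RNA more cells of a state and more RNA per cell cannot be told apart.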

How the data were processed

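Poly(A)-enriched RNA of 16 NOMO-1 libraries was measured. The authors deposited TPM values for 26830 entries, and each library summed to between 999999 and 1000001. The tool RSEM 1.2.31 and the genome build GRCh38 are named, per the submitters' processing notes. The aligner and the strand setting are not given in the sources used. Columns were matched to samples by title. A floor of 1 TPM, reached by 3 libraries or more, left 14951 entries, and log2(TPM + 1) was fitted with limma 3.58.1 in R 4.3.3 (lmFit, eBayes with a mean-variance trend), with 1 mean per group over all 16 libraries and no replicate term. Tests were two-sided, with Benjamini-Hochberg adjustment over all tested genes in each of 7 comparisons and a threshold of 0.05. The fit was tested on simulated data. Depth is unknown, so no counting interval is given. Pearson's r between replicates, across genes, was 0.988 to 0.993. Named genes were the 10 genes, FTO, up to 3 called genes with the smallest adjusted p for each list in each of CS1 against DMSO, CS2 against DMSO and shFTO against shNS, and the 3 most similar genes. A few values of these genes in other comparisons were added after they were seen. So were PIM3, RMI2, SOCS2-AS1, CD3E, CD14, MPO, SPI1, CEBPA, BCL2L1, MCL1 and CCND3. Some genes the rule names, markers above all, are given by counts only. The 10 genes and the lists were chosen with earlier results of these data known. SOCS7 was not analysed here. A few genes the rule names are not reported here. Alternatives covered pseudocount, filter, scaling, replicate block, spread estimate and left-out libraries. Python 3.11.15 with pandas 2.3.3 and matplotlib 3.10.9 made tables and figures.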

Additional observations from a re-analysis of the deposited data

Results flagged for a closer look

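The response of several genes to a compound differed from their response to the FTO hairpin, by a test of the difference itself within the limma fit. For CS1, 4 of 10 genes were called, against 49.4% of all genes, so the count is not above that background. For CS2, 9 of 10 were called, against 63.4% of all genes. For CS1 minus the hairpin the difference in log2 fold change was 0.59 for STAT5B (0.26 for summed STAT5), 1.11 for SOCS1, 0.38 for SOCS3 and -0.39 for PIM1. SOCS3 is the least firm of these: it was not called with a pseudocount of 5 TPM (adjusted p = 0.0729), with median-of-ratios scaling (adjusted p = 0.0543) or with a common median (adjusted p = 0.103), nor without any 1 of 7 libraries, named beside the comparison above, where it lay between 0.32 and 0.38 with adjusted p up to 0.0786.

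For CS2 minus the hairpin the difference was 0.25 for JAK1, 0.72 for JAK2, 1.04 for STAT3, -0.38 for STAT5A, 0.47 for STAT5B, 1.99 for SOCS1, -0.84 for SOCS2, 0.94 for SOCS3 and 0.41 for PIM2. JAK1 and PIM2 were not called under any of the 3 other scalings. STAT5A and STAT5B differed in opposite directions, and with their TPM summed the difference was -0.0098 (adjusted p = 0.879). The compounds and the hairpin were set against different control cells, whose own levels of these genes differ, and that part was not tested. By Dixon's test at its 95% critical value for 4 libraries no DMSO library of the 10 genes passed as an outlier. The highest values were 0.738 for SOCS2 and 0.725 for PIM1, with DMSO replicate 2 lowest in both.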

How the results depend on the processing

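For the 10 genes, 178 of 178 values under other settings kept direction and side of the threshold in CS2 against DMSO, 175 of 178 in CS1 against DMSO, 165 of 168 in CS1 against CS2, 166 of 178 in shNS against DMSO, 229 of 238 in CS2 minus the hairpin, 214 of 238 in CS1 minus the hairpin and 159 of 168 in shFTO against shNS. Of the last, 8 turned sign, none of a called gene: PIM2 (-0.016 with median-of-ratios scaling, -0.018 with quantile normalization, -0.053 with a common median, -0.016 to 0.13 when leaving out a library), SOCS1 (-0.095 with quantile normalization, -0.015 to 0.25 when leaving out a library) and SOCS3 (-0.0076 with quantile normalization). In shNS against DMSO JAK2 turned to 0.039 and 0.0065 (median-of-ratios, common median; -0.062 to 0.011 with a library left out), and PIM1 to 0.00067 (quantile). The count called lower there was 1 in place of 2 with a filter of 5 TPM, all 3 scalings and the replicate block, and 1 to 2 with a library left out. In CS1 minus the hairpin JAK1 turned to -0.025, -0.12 and -0.038, STAT5A to -0.064, -0.10 and -0.080 (median-of-ratios, quantile, common median; -0.038 to 0.041 with a library left out) and STAT3 to -0.046 (quantile). Its count called lower was 2 in place of 1 with a pseudocount of 5 TPM, the 3 scalings and a fit of the compared groups alone, and 1 to 2 with a library left out. In CS2 minus the hairpin PIM1 turned to -0.035, -0.093 and -0.0074 (same order) and JAK1 to -0.036 (quantile), and 1 gene in place of 2 was called lower with the filter of 5 TPM, which removes SOCS2 and SOCS3. For STAT5B in that comparison the summed STAT5 entry gave -0.0098. The causes were not tested unless stated.

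The replicate block left 10, 10 and 7 of the 10 genes called for CS1, CS2 and the hairpin, and 7488, 10936 and 8564 of all genes in place of 7747, 11079 and 8437. Deviations of same-numbered libraries correlated at -0.014 to 0.13 between CS1 and DMSO, 0.012 to 0.11 between CS2 and DMSO, 0.0853 to 0.219 between CS1 and CS2 and 0.0044 to 0.076 between shFTO and shNS. These values exceeded the highest r with a library of another number, except for replicate 1 of CS1 and DMSO and of CS2 and DMSO. For replicate 3 of CS1 and CS2 it was 0.219, against -0.085. Shared variation of same-numbered libraries is thus possible, and the main fit has no term for it. The call that the replicate block lost was PIM1 in shNS against DMSO (-0.13, adjusted p = 0.0772).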
